A study of Mus musculus with 9 samples.

Results

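Cytosolic ribosomal protein genes were followed in 3 tissues of the knee of mouse embryos, namely meniscus, articular cartilage and cruciate ligament. The members were all genes on the array whose symbol begins with Rpl or Rps and a digit, together with Rplp0, Rplp1, Rplp2 and Rpsa; 6 S6 kinase symbols, 7 like-genes such as Rpl22l1 and 1 binding partner (Rps19bp1) were left out. This gave 57 of the 19057 named genes on the array, 33 of the large subunit and 24 of the small subunit, read by 87 probes. The symbol rule also keeps Rps23rg1, a retrogene of Rps23, and counts it with the small subunit by its symbol alone. Whether it encodes a ribosomal protein was not examined. All groups were hindlimb tissue of CD-1 mice, an outbred stock, at embryonic day 16, with no genetic change or treatment named, and each of the 3 tissues had 3 arrays. RNA was read on Illumina bead arrays, which report the brightness of a short probe per transcript after amplification of the RNA. The labels name no separate animals behind the 3 arrays of a tissue, so the p-values speak only of the spread among these samples, possibly a technical one, and how many animals went into a sample is not known here.

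The ribosome is built from a large subunit, which joins amino acids, and a small subunit, which reads the messenger RNA. Each subunit has a ribosomal RNA core and a fixed set of proteins that in most cases are present in a single copy, so their genes are usually expressed together at high levels in every cell type. The stalk of the large subunit is the exception: Rplp0 anchors dimers of the acidic proteins Rplp1 and Rplp2, which recruit the elongation factors. Ribosomal protein messages in mammals typically begin with a cytosine followed by a run of pyrimidines, the 5′ terminal oligopyrimidine tract, through which growth signals acting by the mTOR kinase control their translation as a group. In the mouse, changes in single members give skeletal defects, as with Rpl38 in the tail short mutant and Rpl24 in the belly spot and tail mutant.

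The start of the gene was searched for features that the choice of members did not use. RefSeq promoters of build GRCm38.p6 were available for 47 of the 57 genes. A cytosine followed by at least 4 further pyrimidines, beginning within 5 bases of an annotated start, was found in 23 of the 47 genes (48.9%), against 21.2% of the 27025 genes in the RefSeq table. The core bound by ETS factors, CCGGAAG on either strand within 250 bases before to 50 after a start, was found in 21 of 47 members (44.7%) against 9.93% of all genes, and the core bound by YY1, AAGATGG searched in the same way, in 7 of 47 (14.9%) against 7.28%. These are matches of letters near annotated starts, and the motifs were chosen with earlier results of these data known. The lines that follow show 20 bases before and 20 bases from the annotated start, with the pyrimidine tract in capitals. The first set are members with a tract, among them Rps26, which was called lower in ligament.
Rps6 (chr4:86857348-86857387, minus strand): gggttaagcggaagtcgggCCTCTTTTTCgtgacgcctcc
Rps26 (chr10:128626487-128626526, minus strand): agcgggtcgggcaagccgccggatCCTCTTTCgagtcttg
Rplp2 (chr7:141447631-141447670, plus strand): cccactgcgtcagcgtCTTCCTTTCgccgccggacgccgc
Rpl38 (chr11:114668560-114668599, plus strand): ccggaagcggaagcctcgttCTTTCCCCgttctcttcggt
Rps10 (chr17:27635225-27635264, minus strand): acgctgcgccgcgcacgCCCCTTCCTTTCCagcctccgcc
The second set are members with no tract at the annotated position shown, taken from those called lower in ligament than in cartilage, as was Rps26. Of the 22 tested members with an entry but no tract 5 were called in that comparison, and of the 23 with a tract 1 was. The lines shown are therefore not a fair sample of members with or without a tract.
Rplp0 (chr5:115559447-115559486, plus strand): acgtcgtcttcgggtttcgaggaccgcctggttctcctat
Rpl24 (chr16:55966255-55966294, plus strand): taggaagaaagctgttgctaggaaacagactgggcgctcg
Rpl26 (chr11:68901546-68901585, plus strand): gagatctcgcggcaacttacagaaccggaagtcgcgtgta
Rpl37 (chr15:5116593-5116632, plus strand): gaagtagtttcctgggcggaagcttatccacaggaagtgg

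Only probes with a detection p under 0.01 on each of the 3 arrays of some tissue were kept, and the brightest kept probe stood for its gene. By this rule 54 of the 57 members were tested, 31 of the large and 23 of the small subunit, among 9166 tested features. The used probe was detected on all 3 arrays for 53 of 54 members in meniscus, 54 in cartilage and 47 in ligament, against 89.5%, 90.7% and 49.4% of features. The ligament arrays differed from the others as a set: 18.0% to 20.9% of all probes were detected on them, against 28.9% to 35.6% for the other 2 tissues, and their median raw signal was 147.4 to 209.7 against 93.4 to 103.8. The authors had normalized these 3 arrays apart from the other 6, and whether they were run together is not stated, so array set and tissue cannot be told apart in any comparison with ligament. All 7 cartilage markers were tested, and their mean level was 10.64 to 11.23 (log2) in cartilage, 7.96 to 8.87 in meniscus and 7.56 to 8.99 in ligament. Of 7 tendon and ligament markers 5 were tested, all called higher in ligament than in cartilage with a median of 1.41 (log2); their mean level was 9.12 to 9.22 in ligament, 7.91 to 8.51 in meniscus and 7.40 to 7.88 in cartilage. The other two, the defining genes Scx and Tnmd, were detected on 1 and 0 ligament arrays.

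The first question the design asks is whether meniscus and articular cartilage differ. For ribosomal protein genes no difference passed the test: 0 of 54 members were called at an adjusted p under 0.05, where 0.349% of features were called higher and 0.305% lower in meniscus (limma over all 9 arrays, Benjamini-Hochberg adjustment over 9166 features). At an unadjusted p under 0.05 the count was also 0 of 54, against 11.3% of features. The median difference, meniscus minus cartilage, was -0.02 over the 31 large subunit genes and 0.06 over the 23 small subunit genes (log2), with 0.01 over all features. The smallest unadjusted p of any member was 0.113. For 47 of 54 members, 27 large and 20 small, the whole 95% interval of the difference lay within 1 log2 unit of 0, which held for 45.7% of features. The 3 arrays of meniscus and cartilage did not overlap for 7 of 54 members, against 26.2% of features. These shares are not matched for brightness: 29 of 54 members had a mean log2 signal of 10 or more, against 483 of 9166 features. At that level the lower and upper quartiles of the difference were -0.08 and 0.15 for members and -0.14 and 0.18 for all features.

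The member with the largest positive difference between meniscus and cartilage was Rpl38, which is needed in the mouse for normal patterning of the vertebrae. Its log2 signal was 11.97, 12.55 and 12.30 in meniscus and 11.77, 11.95 and 11.95 in cartilage. The groups just missed each other, and the difference was 0.38 ± 0.22 (SE, n = 3 arrays per tissue), or 1.31-fold, with an adjusted p of 0.59 from limma. Rps10, a protein at the entry of the messenger RNA channel, had the largest negative difference. Its values were 7.85, 8.33 and 8.17 in meniscus and 8.54, 8.86 and 8.26 in cartilage, which overlap, and the difference was -0.44 ± 0.28 with an adjusted p of 0.649. The next most negative differences in the small subunit were -0.34 for Rps23, part of the decoding centre, and -0.30 for Rps15a, whose probe was detected on 1 of 3 meniscus arrays; the most positive were 0.23 for Rps6, 0.21 for Rps15 and 0.18 for Rps20. In the large subunit Rpl34 and Rpl26 followed Rpl38 with 0.26 and 0.21, and Rpl13a, Rpl22 and Rplp1 were most negative with -0.30, -0.27 and -0.23. For Rps6 the 95% interval, the widest of the 54, ran from -1.21 to 1.66.

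**Figure D1:**
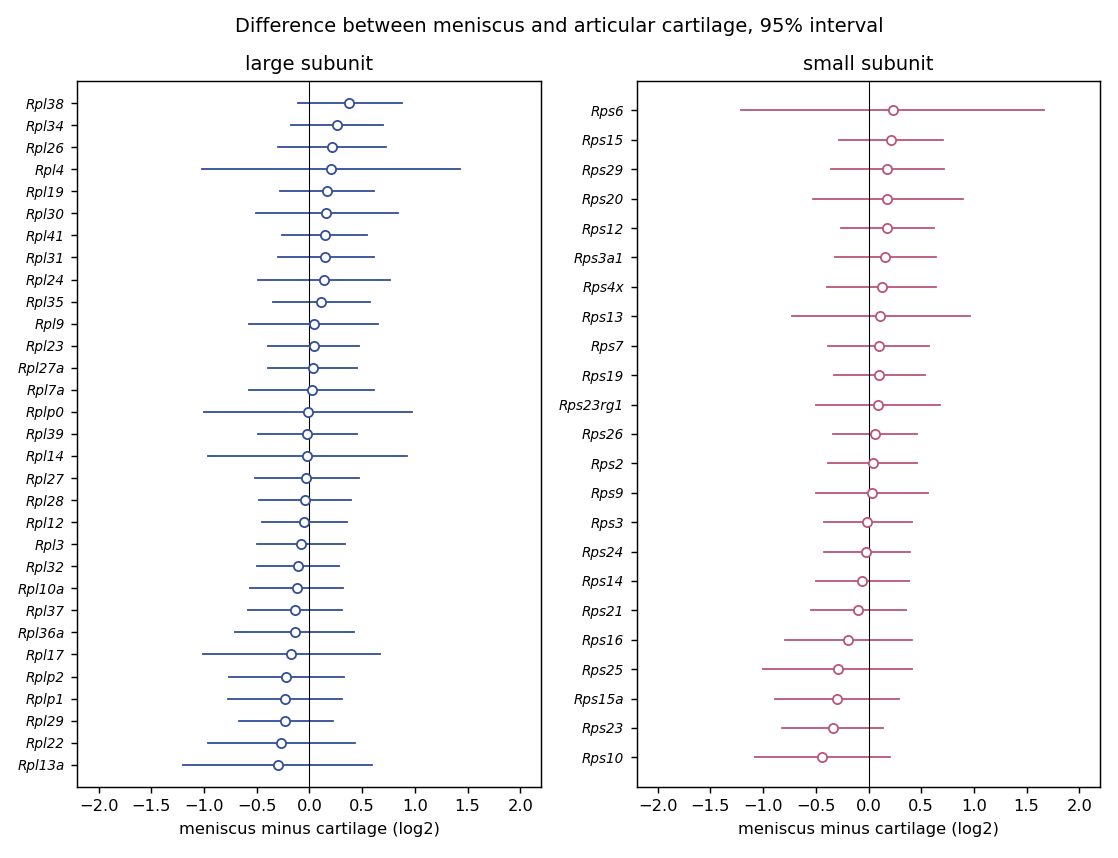
Difference between meniscus and articular cartilage (log2, horizontal axis) for each tested gene of the large subunit (left) and the small subunit (right). Circles are the fitted differences and lines their 95% intervals; open circles mark genes that did not pass an adjusted p of 0.05, which is every gene here. The differences run from -0.44 (Rps10) to 0.38 (Rpl38).

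Both comparisons with the ligament use the same 3 ligament arrays, so their results are not independent. In ligament against cartilage, 8 of 54 members (14.8%) were lower in ligament, against 11.7% of features, and 0 were higher, against 4.37% of features. In meniscus against ligament, 6 of 54 (11.1%) were higher in meniscus, against 9.15% of features, and 0 were lower, against 3.56%. These shares are near the background, so the counts are no result about ribosomal protein genes as a group. They moved apart from it under some settings: with no background correction 17 members (31.5%) were called between ligament and cartilage against 16.5% of features, and with an intensity trend and robust spread in the fit 18 (33.3%) against 18.7%. The calls fell mostly in the large subunit: Rplp0, Rpl24, Rpl26, Rpl29, Rpl30 and Rps26 were called in both comparisons, and Rpl10a and Rpl37 against cartilage only, with adjusted p of 0.0518 and 0.096 against meniscus. Whether the subunits differ in this was not tested. In bulk tissue a lower signal from fewer cells of a type and from less RNA per cell cannot be told apart.

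The counts changed when single arrays were left out. Without meniscus replicate 2, or without meniscus replicate 3, the 6 members called between meniscus and ligament fell to 1, while the share of all features called, in either direction, fell from 12.7% to 4.33% and 4.97%. The 8 members called between ligament and cartilage fell to 1 without cartilage replicate 2, to 4 without cartilage replicate 3 and to 5 without cartilage replicate 1, 1 of these 5 being higher in ligament. The share of features went from 16% to 6.15%, 7.15% and 8.74%. In the same comparison 10 members were called without ligament replicate 1 (18.2% of features), and 6 without any 1 of the meniscus arrays. Fewer arrays also weaken the test, and the part of this in the lower counts was not tested. At an unadjusted p under 0.05, 20 of 54 members (29.9% of features) differed between meniscus and ligament and 21 of 54 (32.6% of features) between ligament and cartilage. The arrays did not overlap for 24 of 54 members between meniscus and ligament (32.5% of features) and for 27 of 54 between ligament and cartilage (34.9% of features).

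The stalk proteins did not all follow the same pattern. Rplp0, the stalk base, gave 8.32, 7.4 and 8.40 in meniscus, 8.34, 8.26 and 7.55 in cartilage and 6.43, 4.86 and 5.83 in ligament (log2). Every ligament array was below every meniscus and cartilage array. The difference between ligament and cartilage was -2.34 ± 0.44 (SE, n = 3 arrays per tissue), 5.08-fold lower with an adjusted p of 0.0095, and meniscus was 5.03-fold higher than ligament with an adjusted p of 0.0118 (limma). The probe was detected on 1 of 3 ligament arrays, so the ligament level lies near background and these folds are uncertain. With the 2 ligament arrays that lay below the lowest signal of any detected probe raised to that signal, Rplp0 was 3.82-fold higher in cartilage and 3.79-fold higher in meniscus; this floor was set after seeing the data. A second, dimmer Rplp0 probe gave smaller differences, -1.35 for ligament minus cartilage and 0.91 for meniscus minus ligament. Without meniscus replicate 3 the adjusted p against meniscus was 0.0512; the call against cartilage was kept in all 18 alternatives that gave a value, with differences from -2.78 to -1.25.

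Rplp1 and Rplp2, which sit on that base, behaved otherwise. Rplp1 gave 10.48, 10.36 and 10.67 in meniscus, 11.09, 10.54 and 10.58 in cartilage and 11.08, 10.78 and 10.54 in ligament. The tissues overlapped, and ligament minus cartilage was 0.07 ± 0.24 with an adjusted p of 0.879 (limma). Rplp2 gave 9.19, 9.64 and 9.63 in meniscus, 9.49, 9.94 and 9.68 in cartilage and 8.77, 9.33 and 9.04 in ligament. Its ligament arrays lay below its cartilage arrays, and the difference was -0.66 ± 0.24 with an adjusted p of 0.0934. Whether the difference of Rplp0 departs from those of Rplp1 and Rplp2 was not tested.

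A further 4 large subunit genes were lower in the ligament against both other tissues. Rpl30, a large subunit protein that in mammals also binds the messages of selenoproteins, gave 8.12, 8.95 and 8.61 in meniscus, 8.17, 8.56 and 8.45 in cartilage and 6.97, 7.55 and 6.64 in ligament. It was 2.54-fold lower in ligament than in cartilage (adjusted p = 0.0197) and 2.84-fold higher in meniscus than in ligament (adjusted p = 0.0146, limma). The call against meniscus was lost without meniscus replicate 2 or 3 (adjusted p = 0.0627 or 0.0565) and with only those tissues in the fit (0.0527), and that against cartilage without cartilage replicate 2 or 3 (0.0752 or 0.0666). A dimmer Rpl30 probe gave -1.14 and 1.24 for the same differences on the log2 scale. Rpl24, which forms a bridge between the subunits, gave 7.98, 8.68 and 8.57 in meniscus, 8.21, 8.64 and 7.97 in cartilage and 6.93, 6.80 and 7.32 in ligament. The ligament arrays again lay below all others, with a difference from cartilage of -1.25 ± 0.28 (adjusted p = 0.0188) and from meniscus of 1.39 ± 0.28 (meniscus minus ligament, adjusted p = 0.0146). The adjusted p of Rpl24 was 0.0748 against cartilage without cartilage replicate 2, and 0.0641 or 0.0604 against meniscus without meniscus replicate 2 or 3.

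Rpl26, a protein near the exit of the peptide tunnel, gave 8.95, 9.18 and 9.05 in meniscus, 8.83, 9.16 and 8.55 in cartilage and 7.80, 7.60 and 8.06 in ligament. It was 2.04-fold lower in ligament than in cartilage (adjusted p = 0.0191) and 2.36-fold higher in meniscus than in ligament (adjusted p = 0.011, limma). The call of Rpl26 was kept in 16 of 19 alternatives against cartilage, with an adjusted p of 0.0529 or 0.0766 without cartilage replicate 1 or 2, and in 18 of 19 against meniscus, with 0.0513 without meniscus replicate 2. Rpl29, which is also known as a heparan sulfate binding protein and whose loss leaves mice small, gave 7.82, 7.61 and 7.69 in meniscus, 7.83, 7.98 and 7.97 in cartilage and 7.18, 6.88 and 6.75 in ligament. It was 1.99-fold lower in ligament than in cartilage (adjusted p = 0.0125) and 1.71-fold higher in meniscus than in ligament (adjusted p = 0.036). The meniscus arrays of Rpl29 also lay below its cartilage arrays, by 0.23 on the log2 scale on average, with an adjusted p of 0.77. The call of Rpl29 against meniscus was kept in 7 of 19 alternatives and that against cartilage in 18 of 19; without meniscus replicate 1 the first had an adjusted p of 0.116, and without cartilage replicate 2 the second had 0.0542.

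Rpl10a and Rpl37 were called against cartilage only. Rpl10a, the protein of the mobile stalk beside the tRNA exit site, gave 10.28, 10.41 and 10.27 in cartilage and 9.31, 9.56 and 9.69 in ligament, a difference of -0.80 ± 0.20 with an adjusted p of 0.0261. The call was kept in 14 of 19 alternatives, and its adjusted p was 0.0635, 0.0949 or 0.0734 without cartilage replicate 1, 2 or 3. Its meniscus values of 10.06, 10.24 and 10.29 were also above every ligament array. Rpl37, a zinc-binding protein, gave 10.90, 11.22 and 10.92 in cartilage and 10.26, 10.21 and 10.51 in ligament, a difference of -0.69 ± 0.20 with an adjusted p of 0.0437 (limma). The call of Rpl37 was kept in 7 of 19 alternatives, and its adjusted p was 0.152 without cartilage replicate 2.

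**Figure D2:**
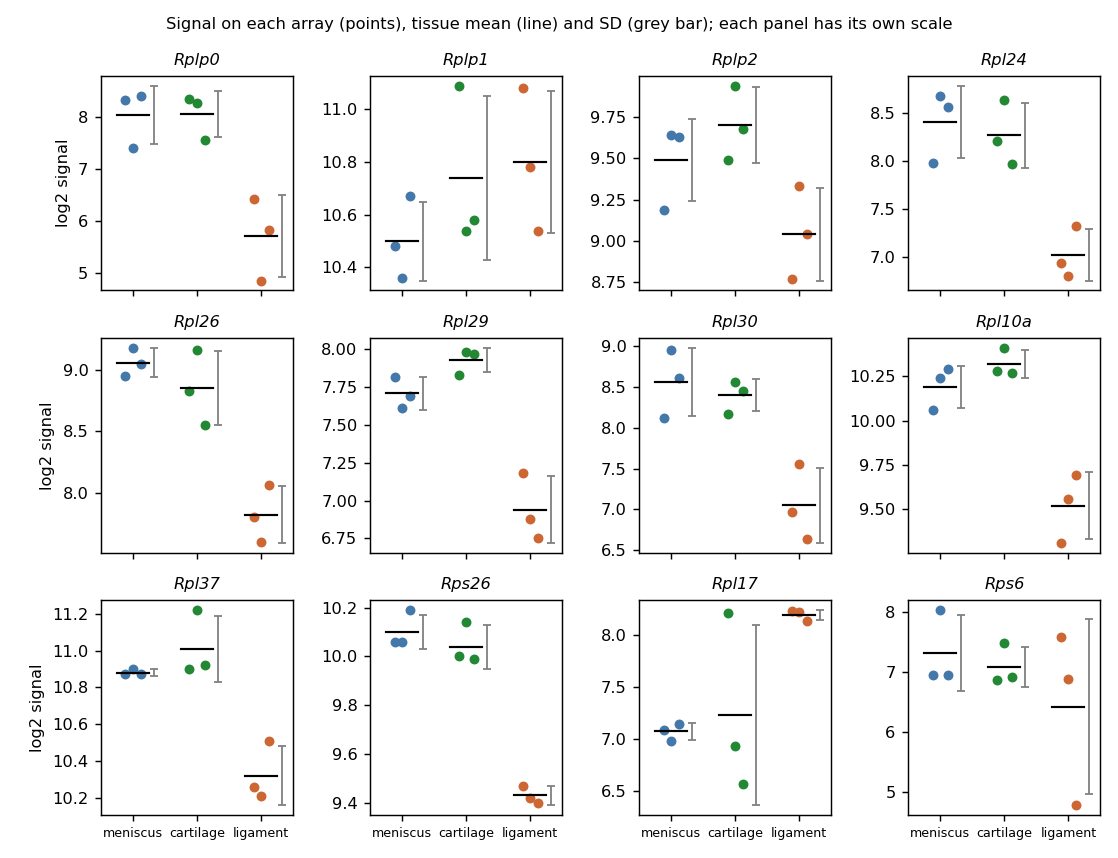
Log2 signal on each array (points), tissue mean (black line) and SD (grey bar) for the 8 genes called in a comparison with ligament and for Rplp1, Rplp2, Rpl17 and Rps6; each panel has its own vertical scale. The ligament points of the 8 called genes lie below all others, those of Rpl17 lie at 8.13 to 8.23, above every meniscus point, and those of Rps6 run from 4.79 to 7.59.

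In the opposite direction Rpl17, which lines the peptide tunnel, had the largest difference. It gave 7.08, 6.98 and 7.14 in meniscus, 8.21, 6.93 and 6.56 in cartilage and 8.23, 8.22 and 8.13 in ligament. The ligament arrays lay close together and above every meniscus array, and cartilage replicate 1 was as high as the ligament arrays. Neither difference passed the test: meniscus minus ligament was -1.13 ± 0.37 (adjusted p = 0.0797) and ligament minus cartilage 0.96 ± 0.37 (adjusted p = 0.111, limma). Without cartilage replicate 1 both passed it, with -1.13 (adjusted p = 0.0154) and 1.45 (adjusted p = 0.0133), and with only meniscus and ligament in the fit the adjusted p was 0.0346. After Rpl17 the highest ligament minus cartilage differences in the large subunit were 0.14 for Rpl31 and 0.12 for Rpl34, with adjusted p of 0.666 and 0.702. Rpl27 was close to level in both ligament comparisons, with -0.07 for meniscus minus ligament and 0.05 for ligament minus cartilage.

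In the small subunit only Rps26, a protein at the exit of the messenger RNA channel, was called. It gave 10.06, 10.06 and 10.19 in meniscus, 9.99 to 10.14 in cartilage and 9.47, 9.42 and 9.40 in ligament. The arrays of each tissue were close together and the ligament arrays lay below all others. The differences were 0.67 ± 0.18 for meniscus minus ligament (adjusted p = 0.0396) and -0.61 ± 0.18 for ligament minus cartilage (adjusted p = 0.0471). Both calls were near the threshold and were kept in 7 and 6 of 19 alternatives, and leaving out any 1 of the 9 arrays ended the call against cartilage, with adjusted p from 0.0527 to 0.151 (limma).

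Larger differences in the small subunit went with a wider spread and were not called. Rps13 gave 8.0, 8.75 and 8.22 in cartilage and 6.69, 7.90 and 7.61 in ligament, a difference of -0.92 ± 0.38 (adjusted p = 0.125), and was 2.05-fold higher in meniscus than in ligament (adjusted p = 0.101). Rps10 gave 7.88, 7.96 and 7.14 in ligament, -0.90 ± 0.28 from cartilage (adjusted p = 0.0614), and Rps16, whose tail reaches the tRNA in the peptidyl site, differed by -0.81 ± 0.27 (adjusted p = 0.0689). Rps29 differed by 0.70 between meniscus and ligament with an adjusted p of 0.0875. Rps19, the gene most often mutated in Diamond-Blackfan anaemia in humans, gave 11.77, 11.86 and 11.90 in meniscus, 11.49, 11.86 and 11.85 in cartilage and 11.31, 11.33 and 11.16 in ligament. The ligament arrays of Rps19 lay below all others, by 0.58 from meniscus and 0.47 from cartilage, with adjusted p of 0.0849 and 0.13. Rps7 stood at the other end, with 9.0, 8.71 and 8.99 in ligament against 8.52, 8.98 and 8.65 in cartilage, a difference of 0.18 ± 0.21 (adjusted p = 0.587). Rps9, Rps25 and Rps14 followed with 0.10, 0.02 and 0.02 for ligament minus cartilage, and Rps25, Rps7 and Rps14 were the lowest for meniscus minus ligament with -0.31, -0.09 and -0.08.

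**Figure D3:**
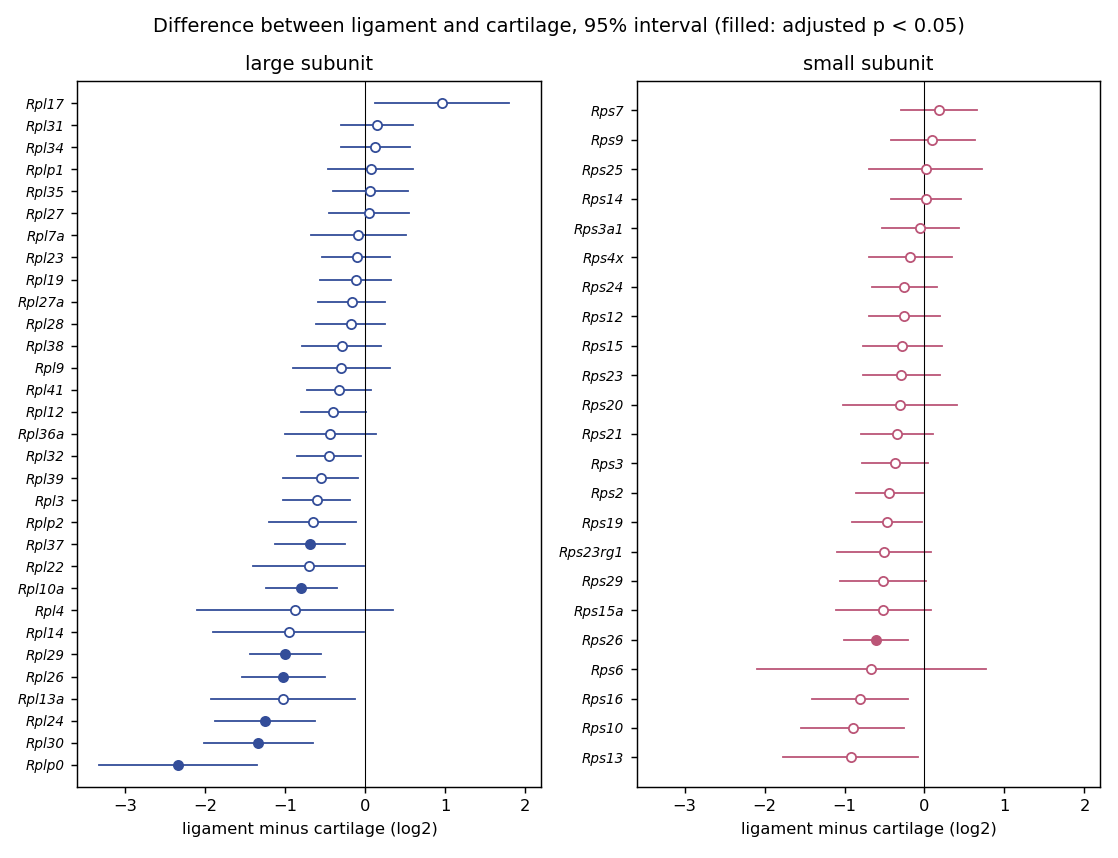
Difference between ligament and articular cartilage (log2, horizontal axis) for each tested gene of the large subunit (left) and the small subunit (right). Circles are the fitted differences, lines their 95% intervals, and filled circles passed an adjusted p of 0.05. Most genes lie below 0, the 8 filled circles run from -0.61 (Rps26) to -2.34 (Rplp0), and Rpl17 stands alone at 0.96.

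As a set the members lay below 0 in ligament against cartilage. The fitted difference was negative for 25 of 31 large subunit genes, with a median of -0.44, and for 19 of 23 small subunit genes, with a median of -0.34, while the median of all features was -0.22 (log2). For meniscus minus ligament 28 of 31 large and 18 of 23 small subunit genes were positive, with medians of 0.44 and 0.43, beside 0.24 for all features. Without ligament replicate 3 the small subunit median was 0.25, beside 0.22 for all features. The background of all features is not a like one: 49.4% of features were detected on all 3 ligament arrays, against 87% of members. Over probes detected on all 9 arrays the ligament minus cartilage medians were -0.33 for the large and -0.32 for the small subunit, beside -0.01 for all features. For meniscus minus ligament they were 0.35 and 0.39, beside 0.06. Relative to the median of all features the large subunit median was -0.22 and the small subunit median -0.12 for ligament minus cartilage. Over the alternatives these relative medians ran from -0.44 to -0.11 for the large and from -0.37 to -0.03 for the small subunit, the value nearest 0 in the small subunit being that without ligament replicate 3. The lowest of the 9 values was on a ligament array for 43 of 54 members (79.6%), against 65.9% of features, and the highest for 7 (13%), against 42%.

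The arrays of the ligament did not shift alike. The median deviation of large subunit genes from their own mean over the 9 arrays was -0.24, -0.26 and -0.29 on the 3 ligament arrays. For small subunit genes it was -0.06, -0.22 and -0.41, so that the subunits were closest on replicate 2. In meniscus the large subunit medians were 0.04, 0.16 and 0.13 and those of the small subunit 0.03, 0.22 and 0.07. In cartilage they were 0.17, 0.23 and 0.04 for the large and 0.14, 0.17 and 0.03 for the small subunit. The median over all features ranged over 0.06 to 0.09 for those 6 arrays and over -0.18 to -0.13 for ligament. Of the 54 members, 20, 7 and 8 were above their own mean on the 3 ligament arrays and 32 to 46 on the other arrays.

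**Figure D4:**
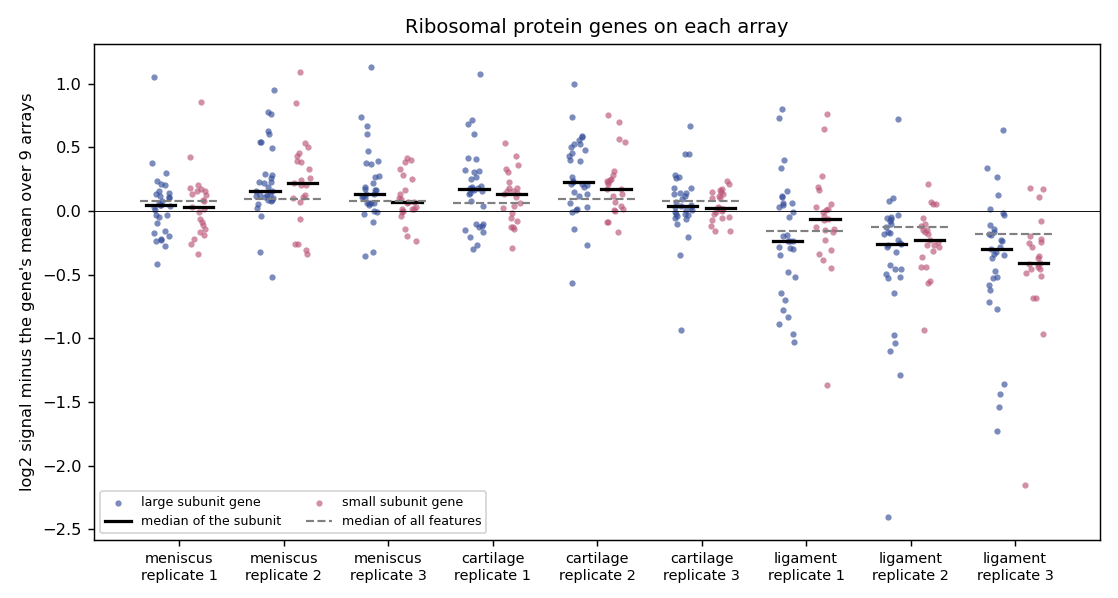
Log2 signal of each tested ribosomal protein gene minus its own mean over the 9 arrays (vertical axis), by array (horizontal axis). Blue points are large subunit genes, pink points small subunit genes, black lines the median of each subunit and dashed grey lines the median of all 9166 features. The subunit medians lie between 0.03 and 0.23 in meniscus and cartilage, and between -0.41 and -0.06 in ligament.

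The size of the difference went with the brightness of the probe. For the 25 members whose probe had a mean log2 signal under 10, the median ligament minus cartilage difference was -0.67, and for the 29 from 10 up it was -0.29; over all features the same medians were -0.24 and -0.11. For meniscus minus ligament the medians were 0.60 and 0.30, beside 0.25 and 0.14 over all features. The 6 members called between meniscus and ligament all had a probe under 10, and of the 8 called between ligament and cartilage 6 did. So did 816 of 839 features called higher in meniscus and 1037 of 1070 called lower in ligament, since 8683 of the 9166 features lie under 10. The part of probe brightness in these differences was not tested. Markers of other cell types were also read. The mean of the 6 tested endothelial markers, of 8 on the array, was 4.84 to 4.96 in cartilage, 5.62 to 6.63 in meniscus and 5.22 to 6.40 in ligament. That of the 3 tested macrophage markers, of 9 on the array, was 5.15 to 5.59, 6.71 to 8.02 and 5.70 to 8.38. Of the erythroid markers 2 of 4 were tested, at 5.79 to 7.17 in cartilage, 6.76 to 7.56 in meniscus and 7.35 to 8.71 in ligament. Of 6 skeletal muscle markers 0 were tested. Pecam1, Cdh5, Tek, Esam, Egfl7, Mrc1, Lyz2 and Alas2 were detected on all 3 arrays in meniscus only, and Cdh5 on 0 arrays of the other tissues. They passed the filter through meniscus, so these means are no test of a difference between tissues. Of 6 smooth muscle and pericyte markers 4 were tested, with a mean of 6.82 to 7.17 in cartilage, 7.64 to 7.90 in meniscus and 8.03 to 8.18 in ligament. Of these 4, 3 were higher and 1 was lower in ligament than in cartilage. The part of these cells in the differences of ribosomal protein genes was not tested.

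**Figure D5:**
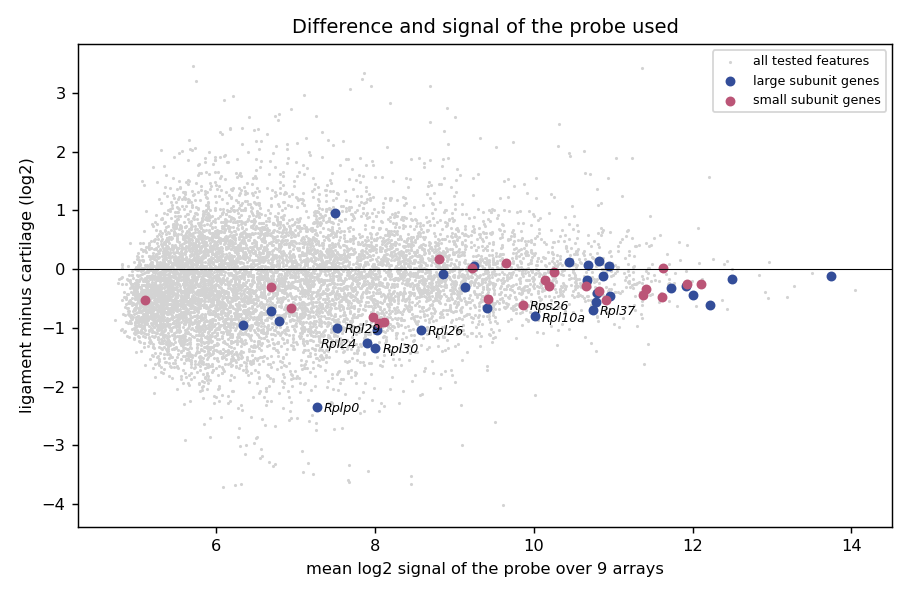
Ligament minus cartilage difference (log2, vertical axis) against the mean log2 signal of the probe over the 9 arrays (horizontal axis) for all 9166 features (grey), large subunit genes (blue) and small subunit genes (pink); the 8 called genes are named. Members with a signal from 10 up have a median of -0.29 and those under 10 a median of -0.67.

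Members with and without a tract at the gene start were also set side by side. The 23 tested members with a tract had a median ligament minus cartilage difference of -0.34, and the 22 tested members with an entry but no tract a median of -0.40. For meniscus minus cartilage the medians were 0.02 and 0.07, and for meniscus minus ligament 0.29 and 0.46. Of the genes called between ligament and cartilage, 1 has a tract near an annotated start (Rps26), 5 have none there and Rpl29 and Rpl30 have no entry. The split is by annotated position only, and whether the messages of these genes begin with such a tract was not tested.

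The members chosen for their roles outside the counts showed the following. Rpl13a, which in human monocytes is released from the ribosome to silence inflammatory messages, gave 7.85, 8.52 and 8.12 in meniscus, 8.63, 8.61 and 8.16 in cartilage and 7.73, 8.10 and 6.48 in ligament. Its ligament arrays lay below its cartilage arrays, with a difference of -1.03 ± 0.40 and an adjusted p of 0.11. Rpl22, which is not needed for translation in general but is needed for T cell development in the mouse, gave 7.37, 6.95 and 6.72 in cartilage and 6.73, 6.19 and 5.97 in ligament, -0.71 ± 0.31 with an adjusted p of 0.144. Rpl39, which lines the peptide tunnel, gave 10.93, 11.22 and 10.80 in cartilage and 10.55, 10.27 and 10.45 in ligament, -0.56 ± 0.21 with an adjusted p of 0.0993. Rpl38 gave 11.73, 11.67 and 11.39 in ligament, below every array of the other tissues, by 0.68 ± 0.22 from meniscus (adjusted p = 0.0746) and 0.29 ± 0.22 from cartilage (adjusted p = 0.395, limma). Rpl5, Rpl10, Rpl11, Rpl13 and Rps18 were not among the 57 members found on the array by symbol, and so were not analysed here.

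Most members varied little within a tissue. Over the 54 members the median SD of the 3 arrays came to 0.16 in meniscus, 0.18 in cartilage and 0.21 in ligament, and to 0.25, 0.25 and 0.49 over all features. Rpl32 had the smallest pooled SD, 0.03, with 11.02, 11.07 and 11.02 in meniscus, 11.14, 11.16 and 11.14 in cartilage and 10.72, 10.69 and 10.66 in ligament. These 3 groups did not overlap, and ligament was 1.37-fold below cartilage with an adjusted p of 0.106; limma draws very small spreads toward that of the other features. Rps26, Rpl41 and Rpl12 followed with 0.07 each. Rps6, whose phosphorylation by the S6 kinases is the usual readout of mTOR signalling, varied most, with a pooled SD of 0.94. It gave 6.96, 8.04 and 6.96 in meniscus, 6.87, 7.49 and 6.92 in cartilage and 7.59, 6.89 and 4.79 in ligament, where it was detected on 2 of 3 arrays. Rpl4, which reaches into the peptide tunnel, had a pooled SD of 0.79 and ligament values of 7.59, 5.75 and 5.06, with its probe detected on 1 of 3 arrays, and Rplp0 followed with 0.61.

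Several members were at or near background. Rpsa, the laminin receptor precursor of the small subunit, was read by 2 probes and Rpl6 by 1, and none of these was detected on any array. Rpl21 had 3 probes, detected on 4, 5 and 0 arrays, and passed no filter. Rps15a was tested on the strength of the cartilage arrays alone: its values were 5.52, 4.79 and 4.90 in meniscus, 5.63, 5.17 and 5.31 in cartilage and 5.15, 4.74 and 4.68 in ligament, where it was not well above background on any array, so no fold is given. A probe that is not detected gives no measure of whether the gene is expressed. Rpl14 was detected on 1 ligament array, and Rpl22 and Rps20 on 2.

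Probes of the same gene did not always give the same difference. Among the 11 members with more than 1 kept probe, Rpl27a was the only one whose probes differed in sign and by over 1 log2 unit: its 4 probes gave meniscus minus ligament differences from -0.25 to 0.77. The brightest, at 12.32 to 12.71 on the 9 arrays, gave 0.20. In Rps24 the 3 kept probes gave ligament minus cartilage differences from -1.55 to -0.25, in Rpl23 4 probes gave -1.32 to -0.11, and in Rpl31 3 probes gave -0.83 to 0.14. The brightest Rpl23 probe stood among the top probes of every array, where quantile normalization leaves few distinct values, so it took only 13.58, 13.70 and 13.87. Ribosomal protein genes have many processed pseudogenes of nearly the same sequence, and the probe sequences were not used here, so cross-hybridization is uncertain for every member.

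Other genes of the translation machinery were taken from lists of their own. Between meniscus and cartilage, where 0.349% of features were called higher and 0.305% lower, 0 were called among 8 elongation genes, 9 subunits of initiation factor 3, 18 other initiation factors, 38 assembly factors, 22 genes of RNA polymerases I and III, and 41 large and 25 small subunit genes of the mitochondrial ribosome. Their medians lay between -0.05 and 0.06, and single differences reached -1.12 among the assembly factors and 0.98 among the subunits of initiation factor 3. Between ligament and cartilage 11.7% of features were called lower in ligament and 4.37% higher. Against cartilage, 1 of 8 genes on the elongation list was lower in ligament, and the median of the list was -0.47. The gene was Tpt1, which binds an elongation factor and is not one itself (-0.64, adjusted p = 0.0405). Eef1a1, which brings aminoacyl tRNA to the ribosome and whose message also carries a pyrimidine tract, gave -0.42 (adjusted p = 0.17), and Eef2, which drives translocation at the stalk, gave 0.07 (adjusted p = 0.852). Of the assembly factors 4 of 38 were lower in ligament than in cartilage, near the share of all features, and 0 higher. The 4 were Dkc1, the pseudouridine synthase, Nop16, Rcl1 (-1.16) and Mrto4, a relative of Rplp0 that in yeast holds its place during assembly (-1.09). Dkc1 and Nop16 were not well above background on any ligament array, so only bounds are given: Dkc1 was at least 3.26-fold and Nop16 at least 1.02-fold higher in cartilage (adjusted p = 0.000977 and 0.00797, limma). Mrto4 was detected on 1 of 3 ligament arrays. Eif6, which keeps the large subunit from joining too early, was lower by 1.34 on the log2 scale (adjusted p = 0.0274).

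Of the mitochondrial ribosomal protein genes, 2 of 41 in the large subunit were lower and 1 higher in ligament than in cartilage, and 2 of 25 in the small subunit were lower. Over all features 11.7% were lower and 4.37% higher, so these counts are no result about the mitochondrial ribosome. Mrpl13 (-0.93) and Mrps34 (-0.75) were lower and Mrpl47 (0.90) was higher. Mrpl38 and Mrps18a were not well above background on any ligament array and were at least 2.63-fold and 1.45-fold higher in cartilage. Over each list the medians of the fitted differences were -0.18 for the large and -0.13 for the small mitochondrial subunit. These are nearer to the median of all features, -0.22, than are the cytosolic large subunit genes at -0.44. The cytosolic small subunit genes, at -0.34, lay nearer to it than the cytosolic large subunit genes. The difference between the sets was not tested. Of the like-genes outside the rule, 4 were tested. Rpl7l1 was lower in meniscus than in ligament, with 4.50, 5.72 and 5.25 against 6.66, 6.74 and 6.07 (-1.33, adjusted p = 0.0427), while a second, kept probe of Rpl7l1 gave 0.63, the opposite sign. Rpl36al gave 0.67 for ligament minus cartilage with an adjusted p of 0.0616 (limma).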

How the data were processed

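RNA of 3 tissues on 9 arrays was analysed. Per the labels' protocols it was extracted with the Arcturus PicoPure kit including a DNase step, amplified with Ovation Pico WTA V2 and biotin-labelled with Encore BiotinIL. Per probe, the deposited scanner output gives a linear signal intensity with a detection p-value; the submitters' processing notes name GenomeStudio without a version. A second table holds the authors' normalized intensity, made by a method not given in the sources used; it was used for matching and as an alternative between meniscus and cartilage. No deposited value was on a log2 scale.

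The 45281 scanner rows carry no names and were matched to the authors' table by their ranks on 9 arrays, each to 1 distinct row, and named by the platform annotation. Signals were background-corrected in limma 3.58.1 (R 4.3.3) with negative controls inferred from detection p-values and an offset of 16, quantile normalized and put on the log2 scale. Of the probes 12538 were kept, giving 9166 features, and tissue means were fitted with lmFit and eBayes over all 9 arrays. Adjustment was by Benjamini-Hochberg over all features, contrast by contrast. Differences are on the log2 scale, and the number of arrays limits their precision. The fit was tested on simulated data. Sequences are from the RefSeq promoter table.

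The deviations of same-numbered samples correlated from -0.03 to 0.151. These low values show little sign that replicate numbers pair the samples, but they cannot exclude it. The members and gene lists were chosen with earlier results of these data known. Named members are those called; the 3 highest and 3 lowest differences per contrast and subunit; those with the 3 largest and 3 smallest spreads; those near background; those with probes in conflict; and a set chosen for their roles. Rps23, Rps14, Rps24, Rpl23 and Rpl31 appear for a value beside these. Alternatives varied normalization, background correction, filter, probe choice, model and arrays.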

Additional observations from a re-analysis of the deposited data

How the results depend on the processing

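Of the values that answer a comparison, 153 stayed close to the reported value over the alternatives and 27 moved. Many of the 153 are medians that some alternatives could not move. Leaving out an array of the tissue not compared, or changing only the fit to 2 tissues, a trend with robust spread or a replicate block, leaves a median difference as it was. The tally is therefore no measure of how steady the medians are. The count of members called between meniscus and cartilage was 0 under every alternative run, with at most 3 members at an unadjusted p under 0.05 (with the authors' values). Between ligament and cartilage the count was 23 with median centring only (33.7% of features called in either direction), 17 with no background correction (16.5%), 18 with an intensity trend and robust spread (18.7%), 5 with array weights (9.85%), 4 with only the 2 tissues in the fit (7.12%), and 1 to 10 leaving out 1 array. Between meniscus and ligament it was 15 with no background correction (12.7% of features), 10 with no detection filter (17.5% of members, 3.88% of features), 18 with the trend and robust spread (15.4%), and 1 to 8 leaving out 1 array. The large subunit median for ligament minus cartilage was -0.34 with cyclic loess, -0.75 with median centring, -0.35 with no background correction and -0.33 over probes detected on all 9 arrays; the small subunit median was -0.70 with median centring. For meniscus minus ligament the large subunit median was 0.28 with cyclic loess, 0.33 with no background correction, 0.35 over probes detected on all 9 arrays, 0.35 with no detection filter and 0.35 to 0.49 leaving out 1 array, and the small subunit median 0.25 to 0.44. For meniscus minus cartilage median centring gave -0.28 for the large and -0.22 for the small subunit, and leaving out 1 array gave -0.09 to 0.08 for the large subunit. Median centring moved the median of all features to -0.28, 0.37 and -0.64 (meniscus minus cartilage, meniscus minus ligament, ligament minus cartilage), and cyclic loess to 0.03 and -0.04 in the ligament comparisons. In the same 2 comparisons that median was 0.11 and -0.11 with no background correction, and 0.06 and -0.01 over probes detected on all 9 arrays. With no detection filter it was -0.03 and 0.04. In the ligament comparisons the median of all features thus also moved nearer to 0 under cyclic loess, no background correction and both filter settings. Median centring moved it further from 0. With the replicate number as a block, 0, 5 and 7 members were called in the same order of comparisons. Whether the numbers pair the samples is not known. The 6 meniscus and cartilage arrays processed alone, and the small subunit median without Rps23rg1, were added after seeing the data and kept their direction. Among single members 196 values stayed on their side of the threshold, 68 lost it, 89 gained it and 0 turned sign while called. The causes of these moves were not tested.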
